A study of Mus musculus with 4 samples.

Results

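Nop56 and 1110038B12Rik are genes whose introns encode small nucleolar RNAs (snoRNAs), and both carried strongly enriched, read-rich peaks in a crosslinking experiment on the RNA-binding protein Trim71 in its R783H mutant form. The peaks are all entries that the authors' deposited table assigns to either gene. They number 4 of 793, with 3 in Nop56 and 1 in 1110038B12Rik. The genes were chosen by the fold change and read density of their intronic peaks, and because they hold snoRNA genes, so these values are given as a description and support no test. Where each peak lies relative to those snoRNA genes was not used in the choice.

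The cells were mouse embryonic stem cells of the ES-E14TG2a background that express FLAG-Trim71 (R783H), grown in 2i + Lif medium. In HITS-CLIP, RNA is crosslinked to protein in the cell, the protein is immunoprecipitated and the attached RNA fragments are sequenced. The labels give 2 libraries precipitated with the FLAG-M2 antibody, called CLIP here, and 2 input libraries of the same cells. All 4 libraries come from cells labelled with the mutant protein, and no library of wild-type Trim71 or of an unrelated antibody is among them. The labels do not state whether the cells also make wild-type Trim71. The table holds 1 read density and 1 fold change per peak for the whole series, so no value below has a replicate error, and n is 1 value throughout. No library is named for either value. The read density was taken as that of the CLIP libraries pooled, which is an assumption. Whether the libraries of a kind came from separate cultures is not given in the sources used here.

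Read density is in RPM, reads per 1000000. Every RPM value was a whole multiple of one eleventh, which corresponds to 11000000 CLIP reads and lets the CLIP reads of each peak be recovered. The fold change of CLIP over input was read as log2, because only then did the implied input reads come out whole. They did so in 100% of the 720 peaks that rounding allowed to be checked, at an input depth 7.47 times that of CLIP, or 82160000 reads. A linear reading reached 21.3% at best and a natural log 11.7%. Intervals are 95% intervals of counting error alone, and reads that are PCR copies are not independent molecules. Of 8 genes that mark embryonic stem cells, 3 (Sox2, Zfp42 and Dppa5a) had a listed peak, beside 2.24% of all protein-coding genes in the RefSeq gene table (490 of 21896). A gene that is not listed has no value in the table, so this does not show its expression.

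Most snoRNAs in mammals are not transcribed from promoters of their own. They lie in introns of host genes, are released when the intron is spliced out and trimmed, and are packed into snoRNPs as they are made. Box C/D snoRNAs, named Snord, guide methylation of ribosomal RNA and are held by the proteins fibrillarin, Nop56, Nop58 and Snu13, while box H/ACA snoRNAs, named Snora, guide pseudouridylation. Nop56 therefore encodes a core protein of the particle that RNAs from its own introns enter. 1110038B12Rik is a host gene annotated as a long noncoding RNA.

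Nop56 spans 4947 bases of chromosome 2 in GRCm38.p6, the assembly of the RefSeq gene table and the counterpart of the mm10 build that the submitters' processing notes name. It runs from 130274367 to 130279313 on the plus strand. The table places 5 snoRNA genes within it. In 5′ to 3′ order they are Snord110, LOC115489609, LOC115489632, LOC115489601 and Snord57. Of these 5 genes, 2 had a listed peak on them and 3 had none. Over the whole table, 6.12% of snoRNA genes (82 of 1340) had one, but Nop56 and 1110038B12Rik were chosen as snoRNA hosts with strong peaks, so nothing is read from their higher counts. The 2 with a peak were Snord110 and LOC115489601. 1110038B12Rik spans 2237 bases of chromosome 17, from 34950235 to 34952471, on the minus strand. It contains 2 snoRNA genes, LOC115488834 toward its 5′ end and Snord52 further 3′, and both had a listed peak. For both hosts the strand of the peaks was that of the gene in RefSeq.

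**Figure D1:**
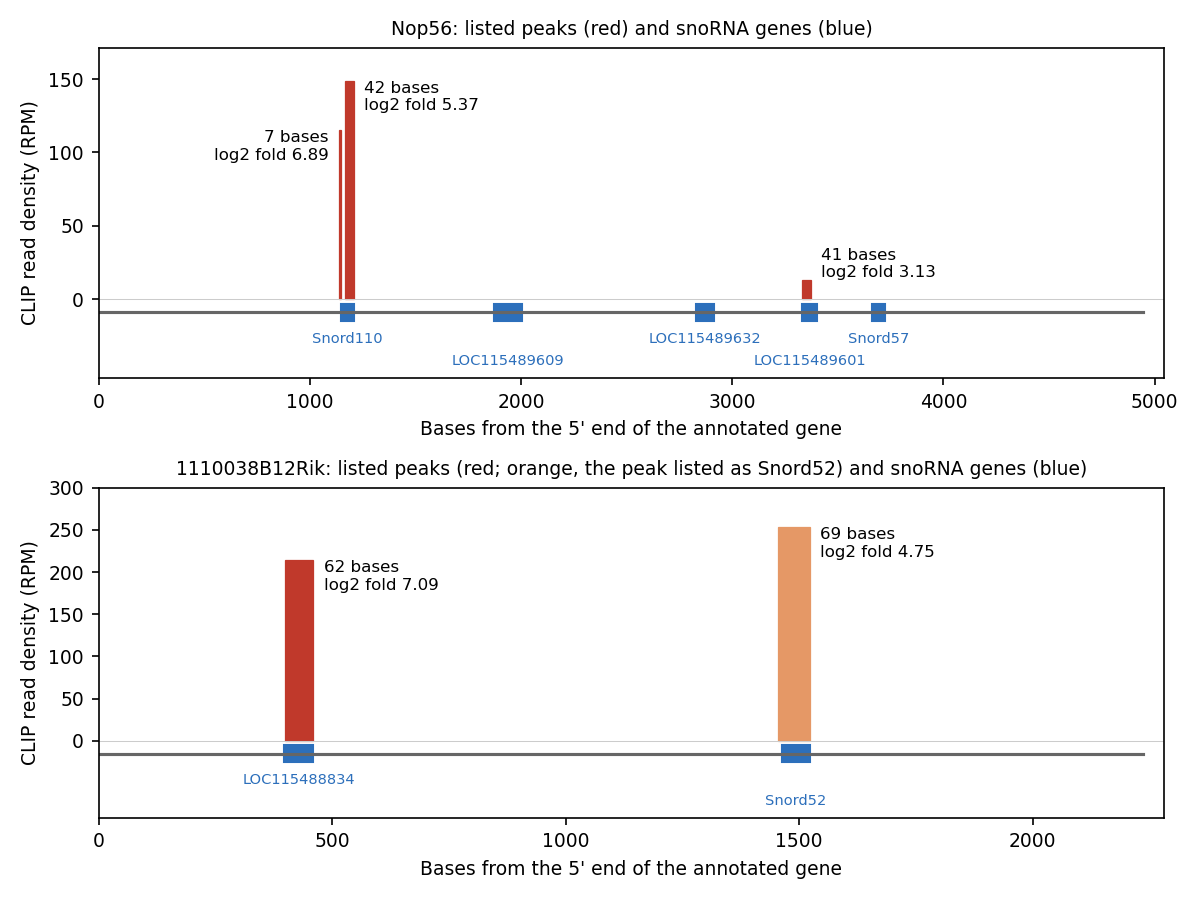
Listed peaks along Nop56 (top) and 1110038B12Rik (bottom), with the distance in bases from the 5′ end of the annotated gene on the x axis and CLIP read density in RPM on the y axis. Red bars are peaks assigned to the gene, the orange bar is the peak assigned to Snord52, and blue boxes are annotated snoRNA genes. The tallest Nop56 bars stand together at Snord110, the third is at 13 RPM on LOC115489601, and 3 of the 5 snoRNA genes of Nop56 have no bar.

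Of the 4 peaks, 3 lay on an annotated snoRNA gene, with all of their bases. Over the whole list, 12.5% of peaks (99 of 793) shared at least 1 base with an annotated snoRNA gene. Among peaks that the authors located in introns the share was 28.1% (34 of 121), and in introns of genes that hold a snoRNA gene it was 81% (34 of 42). Of the 3 intronic peaks described here, all in such genes, 2 lay on one, and so small a count cannot be set apart from that share. The remaining intronic peak stopped 2 bases short of Snord110. These positions take the deposited starts as counted from 0. The file does not state this, and counting from 1 left the 3 peaks on their snoRNA genes. The gene table gives no strand for snoRNAs, so their 5′ and 3′ ends were taken along the strand of the peak.

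The single peak of 1110038B12Rik, deposited as 34952012 to 34952074, was 62 bases wide and was labelled intronic. It covered bases 2 to 63 of the 63 bases of LOC115488834, or 98.4% of that snoRNA gene, and no base outside it. The listed interval therefore closely matched the annotated snoRNA gene. Reads in the flanking intron have no value in the list unless a peak was called there. Among the other 96 peaks on snoRNA genes, 24 covered at least 90% of the gene, and the median coverage was 55.8%.

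This peak drew 2352 CLIP reads (214 RPM), and the input had 129 reads there (1.57 RPM). CLIP exceeded input 136-fold at equal depth, with a counting interval of 114 to 164, or 7.09 on the log2 scale (6.83 to 7.36). By log2 fold change it was 1st of the 99 peaks on snoRNA genes, 5th of the 121 intronic peaks and 7th of all 793. By CLIP density it was 21st of 793, while its input ranked only 149th.

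The other snoRNA of the same host gave a peak that the authors assigned to Snord52 itself and located in an unclassified exon, so it is not among the 4. It was deposited as 34950949 to 34951018 and was 69 bases wide. It covered all 59 bases of Snord52 and 10 more on the 5′ side. The CLIP libraries had 2781 reads in it (253 RPM) and the input 770 (9.37 RPM), a log2 fold change of 4.75 (4.64 to 4.87).

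The peaks on Snord52 and LOC115488834, 994 bases apart in the same host, thus had similar CLIP densities and unlike enrichments. Snord52 exceeded LOC115488834 by 1.18 times in CLIP reads (interval 1.12 to 1.25) and by 5.97 times in input reads (4.95 to 7.25). The difference of -2.34 in log2 fold change (Snord52 minus LOC115488834) therefore lay mostly in the input, and it exceeded the counting error. Whether it exceeds the spread between libraries was not tested.

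Nop56 had most of its CLIP reads at Snord110, where a pair of peaks was separated by 18 bases. The 3′ member of the pair, deposited as 130275530 to 130275572, was 42 bases wide and was located by the authors in an unclassified exon. It covered bases 17 to 58 of the 59 bases of Snord110, 71.2% of the gene. The CLIP libraries had 1637 reads in it (149 RPM) and the input 295 (3.59 RPM), a 41.4-fold excess (36.6 to 47.1) and a log2 fold change of 5.37 (5.19 to 5.56). It ranked 32nd of 793 by CLIP density and 146th by log2 fold change.

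The 5′ member, deposited as 130275505 to 130275512, was an interval of 7 bases labelled intronic, lying just before the first base of Snord110. The CLIP libraries had 1266 reads in it (115 RPM) and the input 80 (0.974 RPM), a 118-fold excess (94.2 to 150). Its log2 fold change of 6.89 (6.56 to 7.23) was the 9th highest of 793 and the 6th highest of the intronic peaks. Its counting interval overlapped that of the 1110038B12Rik peak and did not overlap that of its 3′ neighbour. Compared with the 5′ member, the 3′ member had 1.29 times the CLIP reads (1.2 to 1.39) and 3.69 times the input reads (2.87 to 4.78), so that here too the peaks differed more in input than in CLIP. The lengths of the reads are not given in the sources used here. Reads long enough to cross the 18 bases would be counted in both peaks, so the counts may not be separate measurements.

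**Figure D2:**
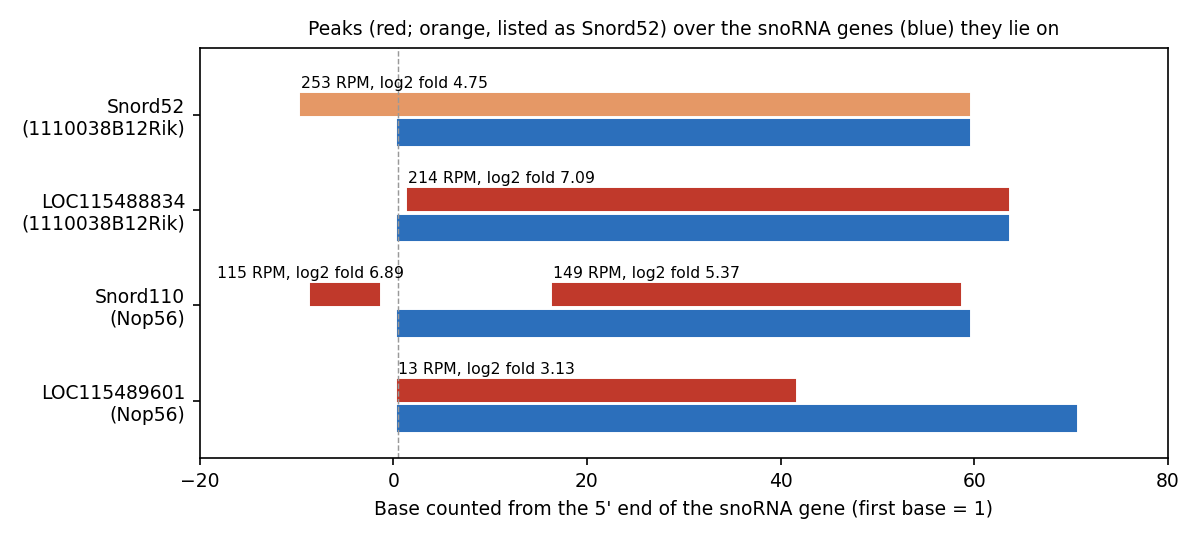
Peaks drawn to scale over the snoRNA genes, with bases counted from the 5′ end of each gene on the x axis. Blue bars are the snoRNA genes, red bars the peaks of Nop56 and 1110038B12Rik, and the orange bar the peak listed as Snord52, each with its CLIP density and log2 fold change. The 1110038B12Rik peak spans bases 2 to 63 of LOC115488834, and the peaks at Snord110 leave the bases of that gene before base 17 uncovered.

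An interval placed just outside a snoRNA gene was rare in the list. Only 2 of the 793 peaks lay off a snoRNA gene but within 10 bases of one. Both were on the 5′ side and labelled intronic. The other was an interval of 2 bases in 2410006H16Rik, 8 bases before Snord49a, with 187 RPM and a log2 fold change of 3.88. Narrow intervals as such were not rare, since 36 listed peaks were 7 bases wide or less. Within 50 bases of a snoRNA gene, 6 peaks lay off it. Of the 99 peaks on snoRNA genes, 12 ran past the annotated 5′ end and 15 past the 3′ end. Whether the annotated ends are those of the snoRNAs themselves, at Snord110 or elsewhere, was not tested.

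Neighbouring peaks less than 50 bases apart on 1 strand occurred 39 times in the list, and in 21 of these pairs at least 1 peak was on a snoRNA gene. At Snord110 the 5′ peak exceeded the 3′ peak by 1.51 in log2 fold change. This was the 6th largest difference in that direction of the 39 pairs and the 4th of the 21 at snoRNA genes. The list as a whole showed no such direction, with the 5′ peak higher in 20 pairs and the 3′ peak higher in 19, and a median difference of 0.07. At snoRNA genes the 5′ peak was higher in 13 pairs and lower in 8. A pair in Gas5, another noncoding snoRNA host, had the same gap of 18 bases and a 5′ excess of 1.88. Other Gas5 pairs, with gaps of 19 bases, had 5′ excesses of only 0.45 and 0.07.

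**Figure D3:**
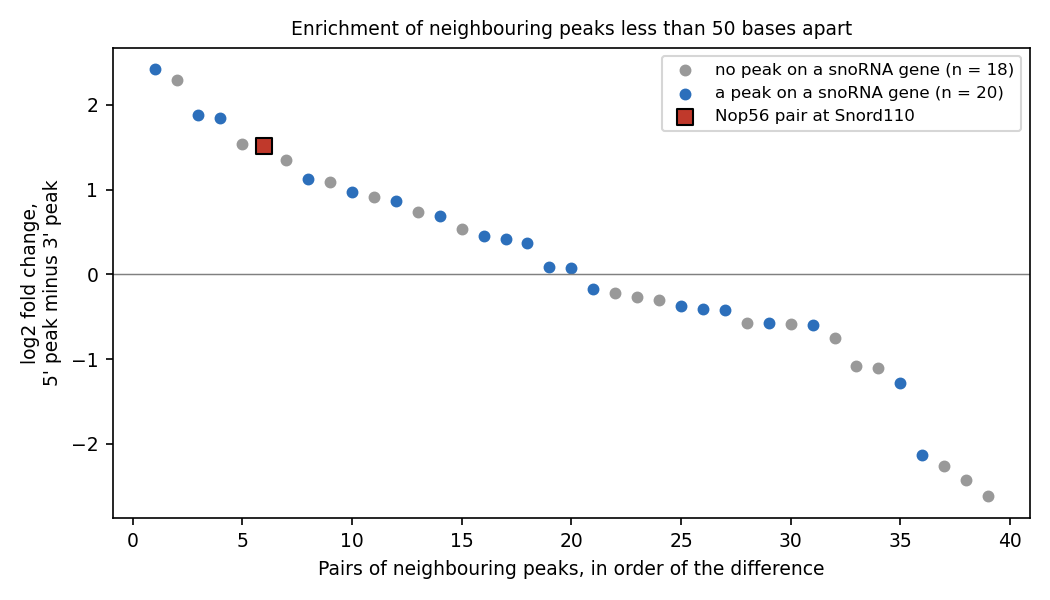
Difference in log2 fold change between the 5′ and the 3′ peak of the 39 pairs of neighbouring peaks, ordered by size. Blue points are pairs with a peak on a snoRNA gene, grey points the other pairs, and the red square is the Nop56 pair at Snord110, at 1.51. Points fall about equally on each side of 0.

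The third Nop56 peak was of another order. Deposited as 130277696 to 130277737 and labelled intronic, it was 41 bases wide and lay 2124 bases 3′ of the Snord110 peaks. It began at the first base of LOC115489601 and ended at base 41 of 70, covering 58.6% of that gene. Only 143 CLIP reads (13 RPM) fell in it, beside 122 input reads (1.48 RPM), an 8.75-fold excess (6.83 to 11.2). Its log2 fold change of 3.13 (2.77 to 3.49) ranked 90th of the 99 peaks on snoRNA genes, 115th of the 121 intronic peaks and 693rd of 793.

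Within 1 host gene, peaks on snoRNA genes therefore ranged widely. The peak on Snord110 had 11.4 times the CLIP reads of the peak on LOC115489601 (9.64 to 13.7) but only 2.42 times its input reads (1.95 to 3.01). The difference between them in log2 fold change was 2.24. In contrast to the comparison within 1110038B12Rik, the larger part of this difference was in CLIP. LOC115489609, LOC115489632 and Snord57 had no listed peak, and the amount of CLIP or input RNA over them is not known from the table.

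Levels were compared between the genes per base of the peak. CLIP density was 3.45 RPM per base on LOC115488834 (3.31 to 3.59), 3.54 on Snord110 (3.37 to 3.72) and 3.66 on Snord52 (3.53 to 3.8). The highest exceeded the lowest by 1.06 times, and the interval of Snord110 overlapped those of the other two. Over the same peaks, input density was 0.0253 RPM per base on LOC115488834 (0.0211 to 0.0301), 0.0855 on Snord110 (0.076 to 0.0958) and 0.136 on Snord52 (0.126 to 0.146), with no overlap between these intervals. Input thus differed 5.36 times among these peaks of 62, 42 and 69 bases, whose CLIP density was nearly the same. That comparison leaves out the peak on LOC115489601 and the interval of 7 bases, which differed in CLIP. The peak on LOC115489601 stood below all of them in CLIP, at 0.317 RPM per base (0.267 to 0.374), with an input of 0.0362 (0.0301 to 0.0432). The interval of 7 bases gave 16.4 RPM per base in CLIP and 0.139 in input. That value is inflated if reads are longer than the interval. Reads that overhang a peak would also raise the other values per base, more so in narrower peaks. How far the near equality in CLIP depends on the called edges was not tested.

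**Figure D4:**
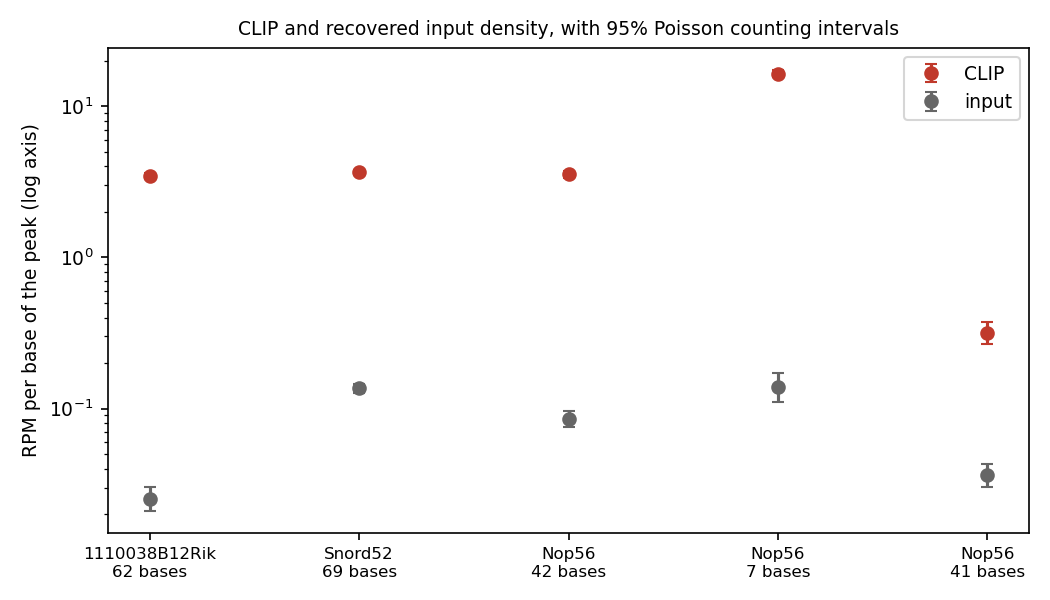
CLIP (red) and recovered input (grey) density of the peaks at the snoRNAs of both hosts, in RPM per base of the peak on a log axis, with 95% Poisson counting intervals. The peaks of 62, 69 and 42 bases lie between 3.45 and 3.66 in CLIP and between 0.0253 and 0.136 in input.

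Across the 99 peaks on snoRNA genes, CLIP and input density were closely related (Pearson r = 0.87 on the log2 scale, Spearman rho = 0.86). Both values are per peak and not per base, so both depend on the width of the peak. The input was recovered from the CLIP value and the fold change. These points also share the same libraries and the selection for enrichment, and the relation is given as a description. The input density of the 1110038B12Rik peak, 1.57 RPM, lay below the median of 2.9 RPM over these peaks, although its CLIP density was 17th of 99. The peak on LOC115489601 had nearly the same input per peak, 1.48 RPM, with a CLIP density that ranked 84th. Per base its input was higher, at 0.0362 RPM beside 0.0253 for the 1110038B12Rik peak, with counting intervals that met at 0.0301.

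The 2 genes were then set beside other snoRNA hosts. The other 39 intronic peaks in 25 genes that hold a snoRNA gene had a median log2 fold change of 4.88 (interquartile range 4.04 to 5.3, highest 7.29) and a median density of 48.9 RPM (21.3 to 153). The 96 other peaks on snoRNA genes, of any location, had a median log2 fold change of 4.46 (3.71 to 5.02, highest 6.85) and a median density of 73 RPM. The 1110038B12Rik peak and the Nop56 interval of 7 bases were above the highest log2 fold change of the latter group and the upper quartile of the former. For the Nop56 interval the margin was slight, at 6.89 beside 6.85 for the peak listed as Snord58b. The Snord110 peak of 42 bases was above the upper quartile of both, and the LOC115489601 peak was below the lower quartile of both. Since fold change and reads chose the genes, these positions are a description.

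**Figure D5:**
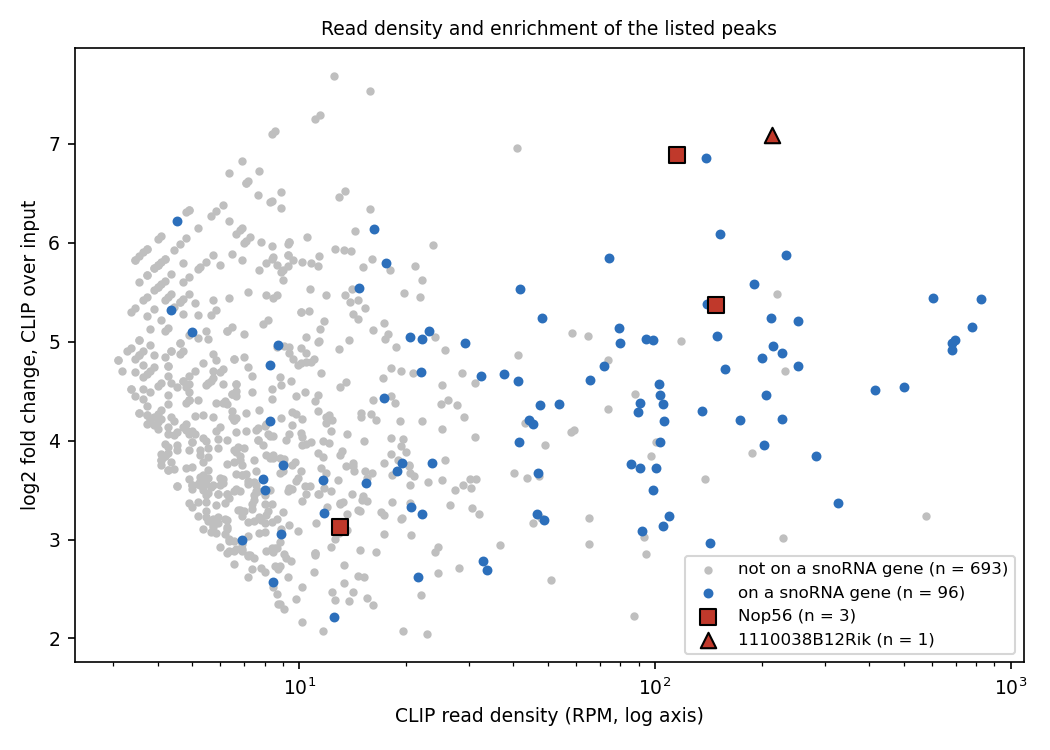
Log2 fold change of CLIP over input against CLIP read density (RPM, log axis) for the 793 listed peaks. Grey points are peaks off snoRNA genes, blue points the 96 other peaks on snoRNA genes, red squares Nop56 and the red triangle 1110038B12Rik. Among the 48 peaks over 100 RPM, 4 reach a log2 fold change of 6, and 2 of these are the upper red points.

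The hosts most like them were found by the strongest intronic peak of each of the 25 other host genes, by distance over log2 RPM and log2 fold change. For both members the nearest was Rpl4, a ribosomal protein gene, at a distance of 1.49 from Nop56 and 1.52 from 1110038B12Rik. Its peak had 190 RPM and a log2 fold change of 5.58 (5.41 to 5.75) and lay on the snoRNA gene Gm23344. Next for both was Rpl7a, another ribosomal protein gene, with 149 RPM and 5.06 (4.89 to 5.22). The third was Sf3b3, which encodes a splicing factor subunit, for Nop56 (98.7 RPM, 5.02) and the ribosomal protein gene Rpl21 for 1110038B12Rik (228 RPM, 4.88). The counting intervals of all 4 genes lay below those of the Nop56 interval of 7 bases and of the 1110038B12Rik peak. The genes were chosen by fold change and reads, so lower values in other hosts are no finding. The search took only peaks labelled intronic. Outside it, the 5-base peak listed as Snord58b, labelled exonic, had 139 RPM and a log2 fold change of 6.85. That is closer to the Nop56 interval of 7 bases than the Rpl4 peak is.

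By gene product, Nop56 belongs with the other box C/D proteins. Of these 4 genes (Nop56, Nop58, Fbl and Snu13), 2 had a listed peak, of which Nop56 was chosen for its peaks. Nop58, the paralogue that pairs with Nop56 in the particle, is itself a snoRNA host and had 4 listed peaks, between 4.54 and 16.5 RPM. An intronic peak of 31 bases lay wholly on the snoRNA gene Gm26287, with 4.54 RPM and a log2 fold change of 6.22, but its 50 CLIP and 5 input reads left an interval of 4.91 to 7.91. A second intronic peak had 5.46 RPM and a log2 fold change of 5.81, on no snoRNA gene. The other two were in the coding sequence (5.91 RPM, log2 fold change 3.46) and the 3′ UTR (16.5 RPM, 4.21). Nop56 differed in having no listed peak in coding sequence or UTRs. None of the 4 box H/ACA protein genes (Dkc1, Nhp2, Nop10 and Gar1) and none of the 8 assembly factor genes searched (among them Ruvbl1, Ruvbl2 and Nufip1) were listed. With 2.24% of all protein-coding genes listed, lists this short would usually hold none, and nothing is read from these counts.

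In reads, the 3 Nop56 peaks summed to 3046 CLIP reads and 277 RPM, which placed the gene 13th of 544 in the list, with any read shared by the Snord110 pair counted more than once. The 1110038B12Rik peak alone placed its gene 20th. Together the 4 peaks made up 2.21% of all listed RPM (95% Clopper-Pearson interval 2.15 to 2.27%), and the 3 labelled intronic made up 5.18% of the RPM in introns (5.02 to 5.34%). Both intervals take every read as counted once. Reads shared by close peaks, here or elsewhere in the list, would make them too narrow. Adding the peak assigned to Snord52 raised the share of the list to 3.35%. Of the 277 RPM of Nop56, 149 carried an exon label and the rest an intron label, although the 42-base and the 7-base peak adjoin the same snoRNA.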

How the data were processed

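The authors deposited 1 table of 793 peaks with a position, gene name, location, RPM and fold change each. RPM was scaled to 1000000 reads per the file headers; the deposited fold change was read as log2 CLIP over input. Per the submitters' processing notes, cutadapt, HISAT2 2.1.0, SAMtools, CASAVA 1.4 and mm10 were named. The peak caller, its thresholds and the handling of replicates are not given in the sources used here. No per-sample column was left out (0).

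CLIP and input reads were recovered from RPM and fold change, with whole input reads accepted within rounding plus 0.03 reads. Intervals were Clopper-Pearson for ratios and exact Poisson for densities (scipy 1.17.1, Python 3.11.15). Peaks were overlapped (at least 1 base) with 1340 snoRNA genes of the RefSeq gene table of GRCm38.p6. Recovery and overlap were tested on simulated data. No significance test was run.

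The genes, lists and the rule for the 3 nearest hosts were chosen with earlier results of these data known. Named were all peaks of both genes, their snoRNA genes, those hosts and listed members of the fixed lists. Sequences of the peaks are not printed, because no genome was used here. Alternatives are given in the closing section.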

Additional observations from a re-analysis of the deposited data

How the results depend on the processing

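No paired analysis was possible because no deposited value is given per library. For the same reason the planned omission of each library was not run. Merging intervals within 50 bases joined the Nop56 pair at Snord110 and gave a log2 fold change of 5.85. By construction this lay between the values of the pair (6.89 and 5.37), and it was outside the counting intervals of both. The reads of the pair were summed, so any read in both peaks was counted more than once. The share of summed RPM moved with the peaks counted. Restricting the list also dropped Nop56 peaks, the exon-labelled one among intronic peaks and the one on LOC115489601 in the better 50%. For Nop56 it was 1.25% of the list, 1.94% among intronic peaks and 1.84% in the better 50% by log2 fold change. For 1110038B12Rik it was 0.962%, 3.24% and 1.49%. The other 21 of 27 alternatives moved values by less than their spread or, for counts, by less than 1.5 times. Among these, widening snoRNA genes by 10 bases placed all 4 peaks on one, and 101 of the list. The comparison with other intronic peaks on snoRNA genes (median log2 fold change 4.90) was chosen after seeing the data. Depth limits the LOC115489601 peak most, with 143 CLIP reads.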

Other observations

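The list as a whole was rich in snoRNA genes. Its 99 peaks on them fell on 82 snoRNA genes and held 57.6% of the summed RPM. Of these snoRNA genes, 14 had 2 or more peaks. On LOC115487640 in Gas5, for example, intervals of 13, 10 and 7 bases had 605, 686 and 683 RPM. Any read that crosses neighbouring peaks would be counted in each, so the 57.6% may not be a share of separate reads. How many reads were shared, on snoRNA genes or off them, was not tested. The authors' gene name was that of the snoRNA itself for 18 of the 99 peaks, as for Snord52, and that of another gene for 79, as for Nop56 and 1110038B12Rik. Of the 49 peaks on snoRNA genes with neither a LOC nor a Gm symbol, 37 were located in unclassified exons and 5 in introns. Of the 36 on genes with a LOC symbol, 14 were in unclassified exons and 18 in introns, and of the 14 with a Gm symbol, 2 and 11. The label intron for the peaks on LOC115488834 and LOC115489601, and exon for the peak on Snord110, follow the more frequent label of each kind. The cause of this split was not tested.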
